A study of Mus musculus with 6 samples.

Results

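The 10 genes described here are the D cyclins *Ccnd1*, *Ccnd2* and *Ccnd3*, the E cyclins *Ccne1* and *Ccne2*, the A cyclin *Ccna2*, the B cyclins *Ccnb1* and *Ccnb2*, and the G1 kinases *Cdk4* and *Cdk6*. They were chosen by name, and each of the 10 matched a row of its own among the 55416 genes of the deposited table. RNA was sequenced from muscle satellite cells (SCs), the stem cells of skeletal muscle, of wild-type (WT) mice and of *Ltf*-KO mice, with 3 libraries of each genotype. The *Ltf*-KO mice carry a CRISPR-Cas9 deletion within lactoferrin (*Ltf*) that was made in C57/BL6N zygotes and is present in every tissue, so the loss is not restricted to SCs. SCs of both genotypes were taken from young adult mice and sorted from digested hind leg muscle. The authors give the gate as α7-integrin and CD34 positive and Sca1 and CD11b negative cells. Their list of staining antibodies, however, names neither CD34 nor CD11b. All libraries came from cells grown for 4 days on Matrigel in growth medium with fetal bovine serum, chick embryo extract and basic fibroblast growth factor. The cells were given no other treatment, and these are cultures and not cells fresh from muscle. The labels do not say whether the 3 libraries of a genotype came from separate animals, pools or dishes, and the spread between them may therefore be technical.

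Cyclins are the regulatory subunits that switch on cyclin-dependent kinases, and each class acts in its own part of the cell cycle. D cyclins are induced by growth factors, bind CDK4 and CDK6 and start the phosphorylation of the retinoblastoma protein in G1. E cyclins with CDK2 complete that step and start DNA replication, cyclin A2 acts through S and G2 phase, and B cyclins with CDK1 drive mitosis. In cultured myoblasts, D cyclins and CDK4 hold the cells in proliferation, whereas cyclin D3 is also known to stay or accumulate as myoblasts leave the cycle and differentiate. The question behind the comparison was whether the RNA of these genes differed between cultured SCs with and without *Ltf*.

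The start sites of 4 of these genes are shown first, because promoter sequence was found for both kinases and both B cyclins, pairs of related genes that differ in level here. RefSeq promoter sequence on GRCm38.p6 was found for 6 of the 10 genes, and all positions are counted from the start site, with -1 as the base before it. Capitals in the kinase promoters mark the E-box CACGTG, the letters bound by MYC and its relatives. Capitals in the B cyclin promoters mark the CCAAT box, bound by NF-Y, and the cell cycle homology region (CHR), TTTGAA or TTCGAA, bound by the MuvB complex.
Cdk4 promoter, chr10:127063285-127063534, plus strand: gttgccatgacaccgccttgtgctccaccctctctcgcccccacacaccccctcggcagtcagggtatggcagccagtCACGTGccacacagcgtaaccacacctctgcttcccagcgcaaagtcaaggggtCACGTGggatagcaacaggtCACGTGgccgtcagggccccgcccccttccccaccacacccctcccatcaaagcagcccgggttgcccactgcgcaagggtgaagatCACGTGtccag
Cdk6 promoter, chr5:3343643-3343892, plus strand: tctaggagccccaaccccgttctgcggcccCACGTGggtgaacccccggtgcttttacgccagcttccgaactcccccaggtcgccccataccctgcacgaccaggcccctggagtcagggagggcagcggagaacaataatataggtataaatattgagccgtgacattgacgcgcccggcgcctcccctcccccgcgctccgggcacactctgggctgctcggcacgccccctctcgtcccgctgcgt
Ccnb1 promoter, chr13:100786467-100786596, minus strand: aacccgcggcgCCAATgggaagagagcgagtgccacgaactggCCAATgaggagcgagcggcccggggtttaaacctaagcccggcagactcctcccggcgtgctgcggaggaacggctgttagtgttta
Ccnb2 promoter, chr9:70421535-70421664, minus strand: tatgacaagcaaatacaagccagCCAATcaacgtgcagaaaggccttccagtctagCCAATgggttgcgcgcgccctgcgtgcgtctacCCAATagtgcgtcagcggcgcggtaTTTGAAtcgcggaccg
The *Cdk4* window held 4 E-boxes, which began at positions -172, -118, -98 and -11, and the *Cdk6* window held 1, at -220. Among 32851 RefSeq promoter windows of 300 bases (250 before and 50 after the start), 7.15% held an E-box and 0.0244% held at least 4. *Ccnb1* had 2 CCAAT boxes, at -99 and -67, and no CHR letters. *Ccnb2* had 3 CCAAT boxes, at -87, -54 and -21, and 2 CHR matches, at -167 (outside the stretch printed) and at 5. A CCAAT box was present in 37.4% of all windows, at least 2 in 11.7% and at least 3 in 3.37%, whereas 19.2% held a CHR match. Of the 2 *Ccnd3* windows, 1 held a CCAAT box and the other held none of the letters searched, and the *Ccne1* window held none of the letters searched. E2F letters (TTTCCCGC, TTTCGCGC, TTTGCCGC and TTTGGCGC), the AP-1 letters TGACTCA and the CRE letters TGACGTCA were also searched on both strands, were present in 2.26%, 5.20% and 1.79% of all windows, and had no match in the windows of these 6 genes. No motif searched overlapped another in the stretches printed. These matches describe the sequence and were not tested as binding sites.

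The deposited values are TPM, a measure of transcript abundance that is corrected for gene length and scaled to a common total in each library, so levels can be set side by side between genes but read depth is unknown. Column sums lay between 993650 and 994356 TPM. *Ltf* was listed at 0.12, 0.02 and 0.02 TPM in WT and at 0.02, 0.03 and 0 TPM in *Ltf*-KO libraries, so it was close to 0 in both genotypes and did not check the labels. The cultures carried the markers of myoblasts, with *Myod1* at 748 to 816 TPM and *Pax7* at 36.6 to 43.3 TPM. *Cd34*, which is named in the reported sort gate, was at 4.41 to 6.20 TPM. Of 10 satellite cell and myoblast markers, 9 passed the filter on low values, and their summed level was 1993 to 2042 TPM in WT and 2024 to 2071 TPM in *Ltf*-KO SCs. The 10 muscle differentiation markers were also present, with sums of 2675 to 3677 TPM in WT and 2660 to 4315 TPM in *Ltf*-KO SCs. Summed markers of other cell types were 103 to 108 TPM in WT and 102 to 134 TPM in *Ltf*-KO SCs for fibroblasts (8 genes), 7.54 to 17.9 and 7.45 to 15.5 TPM for endothelium (6 genes), 4.49 to 7.22 and 4.28 to 6.98 TPM for macrophages and neutrophils (7 genes), 416 to 503 and 459 to 603 TPM for smooth muscle and pericytes (6 genes), and 21.1 to 37.4 and 25.2 to 37.1 TPM for Schwann cells (5 genes). *Acta2* alone gave 409 to 593 TPM of the smooth muscle sum and *Col3a1* 88.0 to 118 TPM of the fibroblast sum, with *Myh11* at most 0.62 TPM and *Pdgfra* at most 1.90 TPM in any library. In the fit described below, all 5 tested fibroblast markers were higher in *Ltf*-KO SCs (median log2 fold change 0.19). With 1 library left out that median was 0.13 to 0.30. None of the 5 had an unadjusted p under 0.05 over all 6 libraries, and 2 did without *Ltf*-KO replicate 3. For endothelium 3 tested markers were higher and 2 lower, and for macrophages and neutrophils 1 and 1. For smooth muscle these were 2 and 0, and for Schwann cells 4 and 1. No marker of these lists was at 0 in every library, and the part of other cells in the cyclin values was not tested.

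All 10 genes were well above the filter of a mean of 1 TPM. *Cdk4* and *Ccnd1* stood highest, with means over the 6 libraries of 357 and 325 TPM, above 97.0% and 96.6% of the 12956 tested genes. *Ccnd3* followed at 302 TPM, then *Ccnb1* at 128, *Ccna2* at 90.4, *Ccnb2* at 47.0, *Ccne1* at 36.1, *Ccne2* at 33.7, *Ccnd2* at 26.3 and *Cdk6* at 22.04 TPM. *Cdk6* was still above 58.2% of tested genes. Of the 9 pairs of neighbours in this order, 6 kept their order in all 6 libraries with no overlap of their ranges. The other 3 pairs were *Ccnd1* over *Ccnd3* (higher in 5 of 6 libraries), *Ccne1* over *Ccne2* (4 of 6) and *Ccnd2* over *Cdk6* (5 of 6), whose ranges overlapped. The widest step was between *Ccnd3* and *Ccnb1*, a ratio of means of 2.36, so that *Cdk4* and the D cyclins *Ccnd1* and *Ccnd3* formed an upper tier above every S phase and mitotic cyclin measured.

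**Figure D1:**
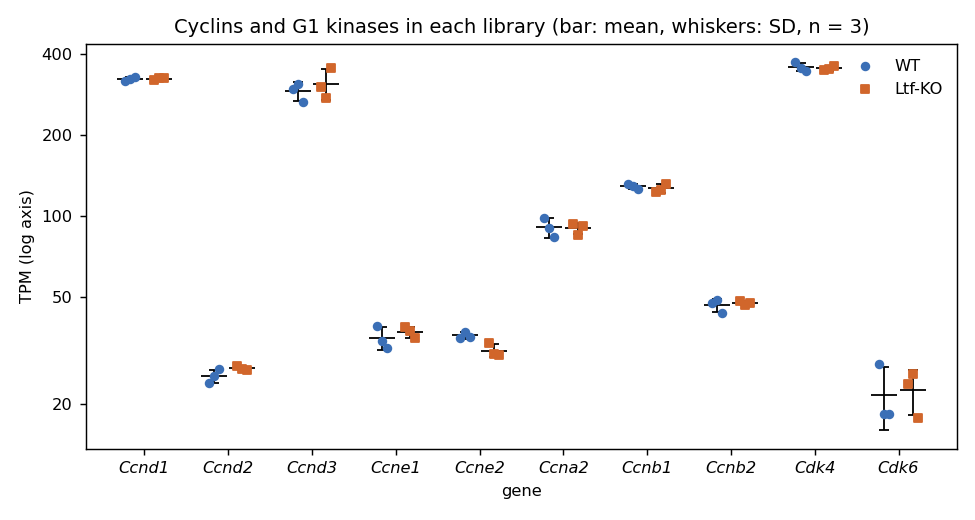
TPM of each of the 10 genes on a log axis, with 1 point per library (circles WT, squares *Ltf*-KO), a bar at the mean and whiskers of 1 SD (n = 3). *Cdk4*, *Ccnd1* and *Ccnd3* lie between 267 and 374 TPM in every library, and the genotypes overlap for every gene except *Ccne2*.

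*Ltf*-KO was compared with WT by limma on log2(TPM + 1), a scale on which 1 is added to each value, in a fit over all 12956 tested genes. At an adjusted p under 0.05 (Benjamini-Hochberg), 0 of the 10 genes were called, as were 0 of all tested genes, a background of 0%. At an unadjusted p under 0.05, 1 of the 10 genes passed, *Ccne2*, against 3.78% of all tested genes (490 genes, 230 lower and 260 higher in *Ltf*-KO). Likewise, *Ccne2* was the 1 gene of 10 with no overlap between the genotypes, against 8.46% of all tested genes, and 3.73% that did not overlap and were lower in *Ltf*-KO SCs. Log2 fold changes (*Ltf*-KO minus WT) were positive for 6 genes and negative for 4, with a median of 0.017 beside a median of 0.011 over all tested genes. A count of 1 in 10 is too small to be set apart from these shares.

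**Figure D2:**
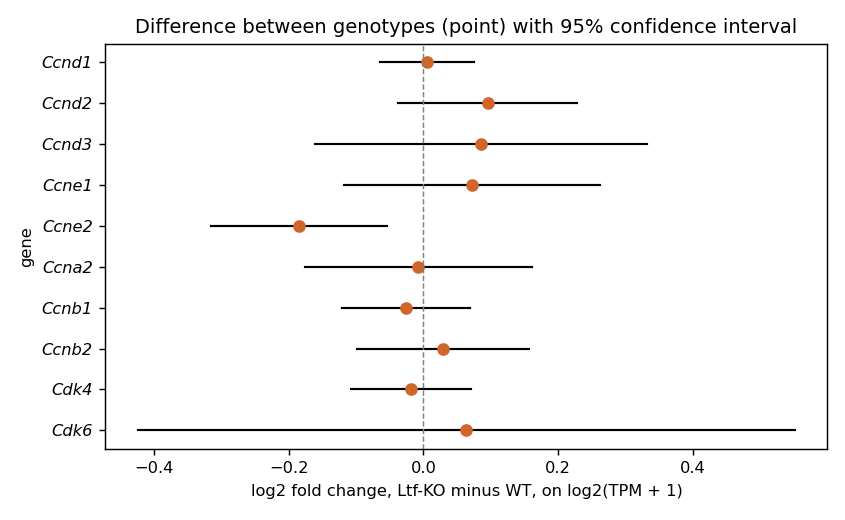
Log2 fold change (*Ltf*-KO minus WT, on log2(TPM + 1)) of each of the 10 genes as a point, with the 95% confidence interval of the limma fit as a line. The interval of *Ccne2* lies from -0.32 to -0.055, and the other 9 intervals cross 0, the widest being that of *Cdk6*.

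Among the D cyclins, *Ccnd1* and *Ccnd3* were both abundant and *Ccnd2* was scarce, and none differed between the genotypes beyond its spread. *Ccnd1* (ENSMUSG00000070348), the D cyclin most directly coupled to mitogen signals, was at 318, 323 and 331 TPM in WT libraries and at 322, 326 and 328 TPM in *Ltf*-KO libraries. The *Ltf*-KO values lay wholly within the WT range. Its log2 fold change was 0.0047 ± 0.029 (SE), with a 95% confidence interval from -0.065 to 0.074, which corresponds to a change between -4.40% and 5.29%. *Ccnd1* was also unusually even between libraries. Its pooled SD within genotypes was 0.022 on the log2 scale, and 6.995% of the 629 genes within 2-fold of its level had a smaller SD. The libraries therefore bound a difference in *Ccnd1* RNA more tightly than for any other of the 10 genes.

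*Ccnd2* (ENSMUSG00000000184), a D cyclin that also responds to growth factors, was at 23.96, 25.36 and 26.85 TPM in WT and at 27.70, 26.97 and 26.82 TPM in *Ltf*-KO SCs. The genotypes overlapped narrowly, since the highest WT library was just above the lowest *Ltf*-KO library. The log2 fold change was 0.095 ± 0.055 (SE), with an interval from -0.037 to 0.23 (limma adjusted p = 0.999). It was positive under all 13 alternatives run, with an unadjusted p from 0.056 to 0.355, and never passed the threshold. Within a library, the ratio of *Ccnd2* to *Ccnd1* was 0.0752, 0.0785 and 0.0812 in WT and 0.0861, 0.0828 and 0.0819 in *Ltf*-KO SCs. This ratio did not overlap between genotypes, by an exact permutation p of 0.1, the smallest that 3 against 3 libraries allow (adjusted p = 0.5 over 10 within-library quantities). The ratio contains *Ccnd2* itself over a nearly even *Ccnd1*, and is not separate evidence.

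*Ccnd3* (ENSMUSG00000034165), the D cyclin associated with muscle differentiation, was at 298, 311 and 267 TPM in WT and at 303, 274 and 355 TPM in *Ltf*-KO SCs. *Ltf*-KO replicate 3 was the highest of all 6 libraries and WT replicate 3 the lowest, with the other 4 mixed between them. The log2 fold change was 0.085 ± 0.10 (SE), with an interval from -0.16 to 0.33, and it turned to -0.015 without *Ltf*-KO replicate 3. In contrast to *Ccnd1*, its pooled SD of 0.16 exceeded that of 91.0% of the 677 genes within 2-fold of its level, whose median was 0.055. The 3 D cyclins together summed to 642 ± 17.5 TPM in WT and 663 ± 42.3 TPM in *Ltf*-KO SCs (SD, n = 3 each; exact permutation p = 0.6). Of that sum, *Ccnd1* made up 50.5% in WT and 49.1% in *Ltf*-KO SCs, *Ccnd3* 45.5% and 46.8%, and *Ccnd2* 3.96% and 4.11%.

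The G1 kinases were represented almost wholly by *Cdk4*. *Cdk4* (ENSMUSG00000006728), the main catalytic partner of D cyclins here by level, was at 374, 356 and 348 TPM in WT and at 349, 352 and 363 TPM in *Ltf*-KO SCs. WT replicate 1 was the highest library and all *Ltf*-KO values lay within the WT range. Its log2 fold change was -0.019 ± 0.037 (SE), with an interval from -0.11 to 0.070, a change between -7.18% and 4.95%. *Cdk6* (ENSMUSG00000040274), the second partner of D cyclins, was at 28.2, 18.4 and 18.3 TPM in WT and at 23.8, 25.8 and 17.7 TPM in *Ltf*-KO SCs. Each genotype held both low and high libraries. Its pooled SD of 0.31 was larger than that of 96.2% of the 4675 genes within 2-fold of its level (median 0.093), so that the interval of its log2 fold change, 0.064 ± 0.20 (SE), ran from -0.42 to 0.55. *Cdk4* made up 93.0% to 95.3% of the 2 kinases in every library, and the ratio of *Cdk6* to *Cdk4* overlapped between genotypes (exact permutation p = 1).

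The E cyclins had fold changes of opposite sign, with *Ccne2* below WT in every *Ltf*-KO library. *Ccne1* (ENSMUSG00000002068), which activates CDK2 at the G1 to S transition, was at 39.1, 34.3 and 32.3 TPM in WT and at 38.6, 37.3 and 35.0 TPM in *Ltf*-KO SCs. The highest and the lowest of the 6 values were both WT. Its log2 fold change was 0.072 ± 0.079 (SE), with an interval from -0.12 to 0.26. *Ccne2* (ENSMUSG00000028212), the other CDK2-activating E cyclin, was at 35.3, 37.1 and 35.5 TPM in WT and at 33.5, 30.6 and 30.5 TPM in *Ltf*-KO SCs. Every *Ltf*-KO library was below every WT library, with *Ltf*-KO replicate 1 the closest to WT. The means were 35.96 ± 0.988 TPM in WT and 31.5 ± 1.74 TPM in *Ltf*-KO SCs (SD, n = 3 each), a log2 fold change of -0.18 ± 0.054 (SE) with an interval from -0.32 to -0.055, or a change of -12.03% on this scale (an interval from -19.6% to -3.71%). Its limma adjusted p was 0.999, and it ranked 116 of 12956 genes by unadjusted p (0.013), so it was not called. The direction was negative under all 13 alternatives, with an unadjusted p of 0.0056 to 0.046 and an adjusted p of at least 0.946.

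The balance of the E cyclins within a library showed the same pair from another side. *Ccne2* over *Ccne1* was 0.903, 1.081 and 1.1004 in WT and 0.870, 0.819 and 0.871 in *Ltf*-KO SCs. All *Ltf*-KO ratios were below all WT ratios, although WT replicate 1 was close to the *Ltf*-KO libraries. The log2 difference was -0.26, with an exact permutation p of 0.1, the smallest this design allows (adjusted p = 0.5 over 10 quantities). This ratio contains *Ccne2* itself and is not separate evidence. The summed E cyclins, at 71.2 ± 3.31 TPM in WT and 68.5 ± 3.33 TPM in *Ltf*-KO SCs (SD, n = 3 each), overlapped between genotypes (exact permutation p = 0.5).

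**Figure D3:**
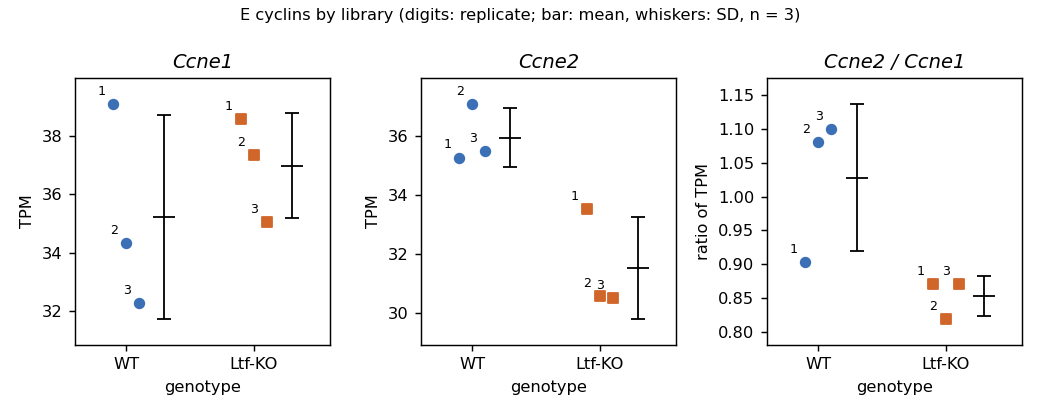
TPM of *Ccne1* and *Ccne2* and their ratio in each library (digits give the replicate), with the mean and 1 SD (n = 3) beside the points and vertical axes that do not start at 0. *Ccne1* overlaps between genotypes, while *Ccne2* is 35.3 to 37.1 TPM in WT and 30.5 to 33.5 TPM in *Ltf*-KO SCs.

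The S phase and mitotic cyclins were nearly level between genotypes. *Ccna2* (ENSMUSG00000027715), which partners CDK2 in S phase and CDK1 in G2, was at 98.6, 90.1 and 83.4 TPM in WT and at 93.1, 85.0 and 92.1 TPM in *Ltf*-KO SCs. WT libraries held both extremes. The log2 fold change was -0.0078 ± 0.070 (SE), with an interval from -0.18 to 0.16. *Ccnb1* (ENSMUSG00000041431), the main mitotic cyclin, was at 131.8, 129.5 and 126.1 TPM in WT and at 123.2, 125.5 and 131.7 TPM in *Ltf*-KO SCs. *Ltf*-KO replicates 1 and 2 were below every WT library, and *Ltf*-KO replicate 3 lay within the WT range. The log2 fold change of *Ccnb1* was -0.026 ± 0.040 (SE) with an interval from -0.12 to 0.069. *Ccnb2* (ENSMUSG00000032218), the second mitotic B cyclin, was at 47.4, 48.7 and 43.5 TPM in WT and at 48.3, 46.5 and 47.5 TPM in *Ltf*-KO SCs. All *Ltf*-KO values of *Ccnb2* lay inside the WT range, and its log2 fold change was 0.029 ± 0.053 (SE) with an interval from -0.098 to 0.16.

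The proportions among these 3 cyclins were stable across libraries. *Ccnb1* made up 46.6% to 49.8% of their sum, *Ccna2* 33.0% to 35.5% and *Ccnb2* 17.1% to 18.3%. Their sum was 266 ± 12.5 TPM in WT and 264 ± 7.14 TPM in *Ltf*-KO SCs (SD, n = 3 each; exact permutation p = 0.9). Set against the D cyclins of the same library, it was 0.433, 0.407 and 0.405 in WT and 0.405, 0.410 and 0.382 in *Ltf*-KO SCs (exact permutation p = 0.5). The ratio of cycling-phase to growth-factor-induced cyclins thus overlapped between genotypes. Pseudogene rows named after *Ccnb1*, *Ccnb2* and *Ccnd3* are listed in the table at no more than 0.13, 1.54 and 0.31 TPM in any library, and how reads shared with such copies were assigned is not given in the sources used here.

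The partners, inhibitors and regulators of these genes were read from 9 lists, in none of which did a gene have an unadjusted p under 0.05 in the fit over all 6 libraries. With 1 library left out, 0 to 2 genes a list passed it. Of 14 other cyclins and cycle kinases, 12 were tested, 4 with positive and 8 with negative log2 fold changes (median -0.0088). The 2 with the lowest p were *Ccng2*, a cyclin associated with cell cycle arrest, at 15.4 ± 1.23 TPM in WT and 18.6 ± 2.45 TPM in *Ltf*-KO SCs (log2 fold change 0.25), and *Cdk2*, the partner of E cyclins, at 56.4 ± 0.273 and 52.2 ± 3.27 TPM (-0.11), each with n = 3. *Cdk2* was lower in each *Ltf*-KO library (55.6, 49.1 and 51.8 TPM) than in any WT library (56.2, 56.7 and 56.2 TPM), the 1 gene of these 12 with no overlap, against 8.46% of all tested genes. All 10 CDK inhibitors and pocket proteins, which restrain CDK4, CDK6 and CDK2 or are their targets, were tested, with 7 positive and 3 negative (median 0.040). *Rb1*, the retinoblastoma protein phosphorylated by cyclin D with CDK4, had the lowest p of that list at a log2 fold change of 0.26, from 14.7, 16.6 and 14.5 TPM in WT and 19.92, 14.03 and 22.39 TPM in *Ltf*-KO SCs. *Ltf*-KO replicate 2 was the lowest of these 6 values and *Ltf*-KO replicate 3 the highest. *Cdkn2a*, whose products include the CDK4 and CDK6 inhibitor p16, was next with 0.11.

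The transcription factors upstream and downstream of the cyclins were divided in sign. Of 10 E2F and DP factors, a family with both activators and repressors of cell cycle genes, 5 were positive and 5 negative (median -0.0011). The lowest p were those of *Tfdp2* (log2 fold change -0.13) and *E2f5* (0.10). Of the MuvB, B-Myb, FoxM1 and NF-Y genes, which act at CHR and CCAAT letters, 9 of 10 listed were tested, 4 positive and 5 negative (median -0.011), led by *Lin37*, a MuvB subunit, at -0.20 and *Nfyb*, an NF-Y subunit, at -0.086. *Lin54* was not analysed here. Among D cyclin inducing factors, 6 of 7 were tested, 3 positive and 3 negative (median -0.0100), led by *Fos* at 0.26 and *Jun* at -0.031, the AP-1 subunits. *Myc*, which acts at E-boxes, was at 98.9, 94.6 and 102.5 TPM in WT and at 94.2, 102.4 and 89.1 TPM in *Ltf*-KO SCs, so the genotypes overlapped.

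Genes that destroy cyclins or set CDK phosphorylation had list medians close to 0, with single genes on both sides. Of 16 cyclin turnover genes, 8 were positive and 8 negative (median -0.00032), led by *Fbxo31*, an F-box protein that targets cyclin D1, at -0.22, and *Cdc27*, a subunit of the anaphase-promoting complex, at 0.093. *Skp1*, a core subunit of the SCF ubiquitin ligases, was at 192 to 206.0 TPM in WT and at 206.3 to 212 TPM in *Ltf*-KO SCs. It was the 1 gene of these 16 with no overlap, a share that does not exceed the 8.46% of all tested genes. Of the 6 CDK phosphorylation switches, 1 was positive and 5 negative (median -0.018), led by *Cdc25a*, a phosphatase that activates CDK2, at -0.064, and *Pkmyt1*, a kinase that inhibits CDK1, at -0.037. *Cdc25a* was at 24.35 to 26.0 TPM in WT and at 23.81 to 24.25 TPM in *Ltf*-KO SCs. It was the 1 gene of these 6 with no overlap, against 8.46% of all tested genes. Mitosis genes numbered 13, with 6 positive and 7 negative (median -0.0091, and -0.030 to 0.047 with 1 library left out, when 3 to 10 of the 13 were negative), led by *Aurkb* at 0.12 and *Birc5* at -0.097, both subunits of the chromosomal passenger complex.

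**Figure D4:**
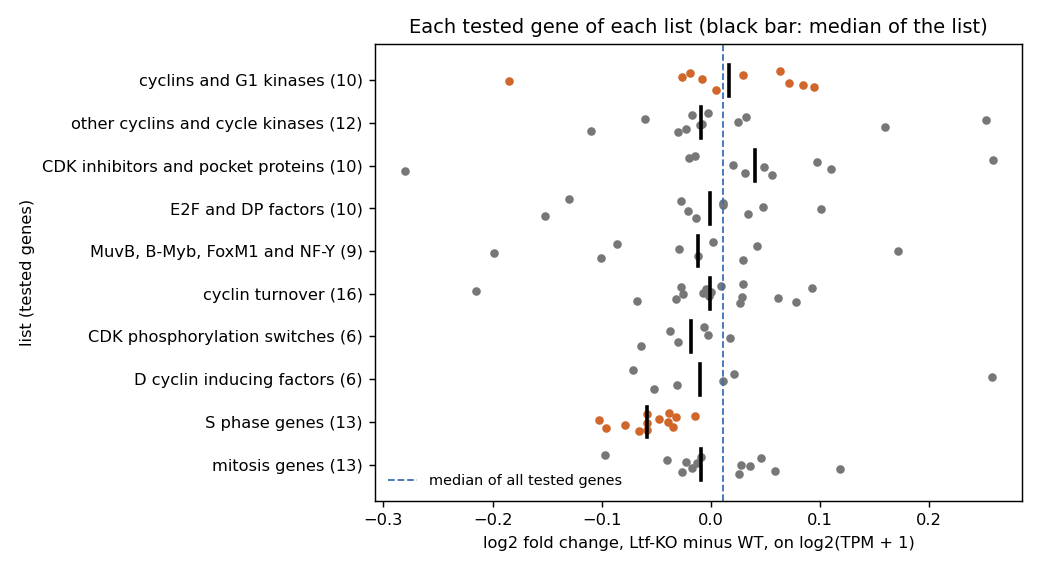
Log2 fold change (*Ltf*-KO minus WT, on log2(TPM + 1)) of every tested gene in each list, with a black bar at the median of the list and a dashed line at the median of all tested genes, 0.011. Orange marks the 10 cyclins and G1 kinases and the S phase genes, and grey the other lists. All 13 S phase genes lie below 0, while the 10 cyclins and G1 kinases lie on both sides.

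The S phase genes, which replicate DNA or supply its nucleotides, lay below 0 as *Ccne2* did. All 13 S phase genes had negative log2 fold changes, between -0.10 and -0.014 (median -0.058), where 44.3% of all tested genes were negative. Like the other lists, this one was chosen with earlier results of these data known. None of the 13 passed an unadjusted p under 0.05. Of the 13, 4 were lower without overlap between genotypes, against 3.73% of all tested genes. The summed level of the 13 was 1971 to 2069 TPM in WT and 1956 to 1978 TPM in *Ltf*-KO SCs, so the sums overlapped. The 13 genes were read in the same 6 libraries and are not separate observations. The lowest p were those of *Pcna*, the sliding clamp of DNA polymerases, at 308, 300.0 and 303 TPM in WT and 291, 291 and 289 TPM in *Ltf*-KO SCs (log2 fold change -0.065), and *Mcm5*, a subunit of the replicative helicase, at 82.3, 78.0 and 78.8 TPM in WT and 73.2, 76.1 and 76.8 TPM in *Ltf*-KO SCs (-0.079). Wider annotations were added after these values were seen. Genes of the S phase list that carry such a term were kept in it, so the counts that follow are not separate evidence. Of 82 tested genes with the DNA replication term, 41 were lower in *Ltf*-KO SCs (median -0.00064), of 16 with the DNA replication initiation term 11 were lower (median -0.035), and of 119 in the cell cycle pathway 66 were lower (median -0.011). In these bulk libraries, fewer cells in a phase and less RNA per cell cannot be told apart.

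The spread of *Ccnd3* went with that of muscle differentiation genes, a relation looked for after the values were seen. The 10 differentiation markers summed to 2878, 3677 and 2675 TPM in WT and to 3137, 2660.0 and 4315 TPM in *Ltf*-KO SCs. *Ltf*-KO replicate 3 was the highest in both this sum and *Ccnd3*. None of the 10 markers had an unadjusted p under 0.05 between genotypes or was at 0 in every library, all 10 log2 fold changes were positive (median 0.14), and with 1 library left out the median ranged from -0.063 to 0.30. Over the 6 libraries, log2 *Ccnd3* and the log2 sum had a Pearson r of 0.952 (exact permutation p = 0.0056) and a Spearman rho of 0.943 (exact permutation p = 0.017). Adjusted over the 10 genes for which the relation was computed, these exact p-values were 0.056 and 0.167, so neither passed. Without WT replicate 2 and *Ltf*-KO replicate 3, the 2 libraries farthest from the median of the sum, Pearson r was 0.915, and with each value taken as a deviation from its genotype's mean it was 0.953. The part of differentiation in the *Ccnd3* difference between genotypes was not tested. For the other 9 genes Pearson r ranged from -0.584 (*Cdk6*) to 0.572 (*Ccnb2*), with an adjusted exact permutation p of at least 0.639, and for *Ccnd1* it was 0.019. Without the same 2 libraries these values moved widely, to -0.669 for *Ccnd1*, 0.292 for *Cdk6* and 0.762 for *Ccnb2*.

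**Figure D5:**
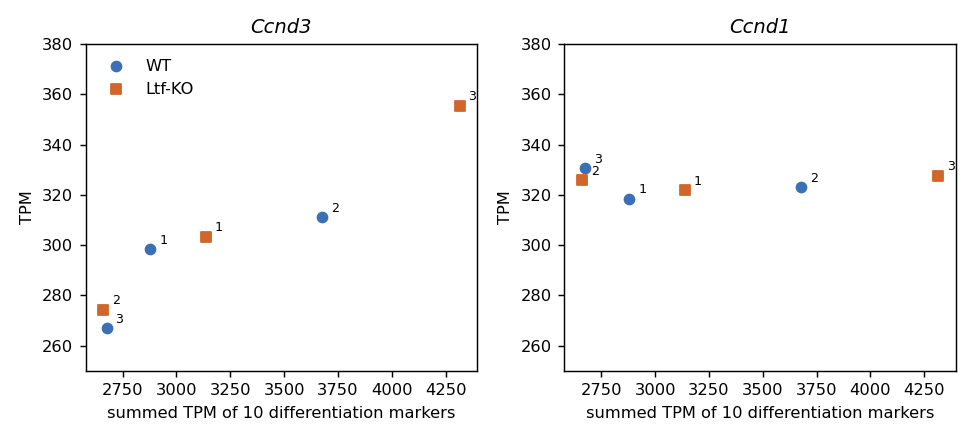
TPM of *Ccnd3* (left) and *Ccnd1* (right) against the summed TPM of 10 muscle differentiation markers, 1 point per library (circles WT, squares *Ltf*-KO, digits give the replicate), on vertical axes from 250 to 380 TPM. *Ccnd3* is lowest in the 2 libraries with the smallest sums and highest, at 355 TPM, in *Ltf*-KO replicate 3, whereas *Ccnd1* stays between 318 and 331 TPM.

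The genes whose profile over the 6 libraries lay closest to that of *Ccnd1*, measured as the root mean square difference of centred log2(TPM + 1) values, were *Cnbp* (0.0057), *Rapgef1* (0.0082) and *Trappc9* (0.0099), where the median over 12946 other tested genes was 0.097. *Cnbp* encodes a nucleic acid binding zinc finger protein and *Rapgef1* an exchange factor for RAP GTPases. Closest to the mean profile of *Ccna2*, *Ccnb1* and *Ccnb2* were *Enoph1* (0.0088), *Pex3* (0.013) and *Stmn1* (0.013), beside a median of 0.11. *Stmn1*, which encodes the microtubule-destabilizing protein stathmin, was at 320.2, 318 and 295 TPM in WT and at 311, 305 and 321 TPM in *Ltf*-KO SCs, with WT replicate 3 the lowest as for *Ccna2* and *Ccnb2*. A gene that did not vary at all would differ from *Ccnd1* by 0.018, the root mean square of the *Ccnd1* profile itself, also far below the median of 0.097. From the mean profile of *Ccna2*, *Ccnb1* and *Ccnb2* such a gene would differ by 0.047, also below the median of 0.11. The likeness is given as a description over 6 libraries.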

How the data were processed

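RNA sequencing gave 3 WT and 3 *Ltf*-KO libraries of SCs grown for 4 days, grouped by the sample titles. The authors deposited TPM values of 55416 genes, extracted and normalized by the sequencing company's protocol. The submitters' processing notes name GRCm39, and the aligner and annotation are not given in the sources used here. Since the reference at hand was GRCm38, no gene coordinates are given except those of RefSeq promoter windows on GRCm38.p6. TPM keeps no depth, so precision was judged from the spread between libraries.

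The 10 genes and all lists were chosen with earlier results of these data known. The 12956 genes (23.4%) whose mean over the libraries reached 1 TPM were fitted with limma 3.58.1 in R 4.3.3 (lmFit, and eBayes with a variance trend) on log2(TPM + 1), without covariates. Tests were two-sided, with Benjamini-Hochberg adjustment over all tested genes and a threshold of 0.05. Named genes were the 10 genes, *Ltf*, in each pathway list the 2 with the lowest p and any at an unadjusted p under 0.05, and the 3 closest in profile to *Ccnd1* and to the mean of *Ccna2*, *Ccnb1* and *Ccnb2*. *Skp1*, *Myc*, *Myod1*, *Pax7*, *Cd34*, *Acta2*, *Col3a1*, *Myh11* and *Pdgfra* were named outside this rule, after their values were seen. Summed levels and ratios within a library were compared by two-sided exact permutation over the 10 splits of 6 libraries into 3 and 3. The fit was tested on simulated data. Alternatives were a pseudocount of 0.1, no filter, a filter at 10 TPM, quantile normalization, median-of-ratios scaling, no variance trend, the replicate number as a block, and each library left out in turn. Python 3.11.15, scipy 1.17.1 and pandas 2.3.3 were used.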

Additional observations from a re-analysis of the deposited data

How the results depend on the processing

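Of the 10 cyclins and G1 kinases, 0 had an adjusted p under 0.05 and 1, *Ccne2*, an unadjusted p under 0.05, in every alternative run, with each library left out included. With 1 library left out, genes at an adjusted p under 0.05 over the whole table numbered 0 (without WT replicate 1) to 7 (without WT replicate 2), with 6 and 3 when *Ltf*-KO replicate 1 or 3 was left out and 2 when WT replicate 3 or *Ltf*-KO replicate 2 was. At an unadjusted p under 0.05 they numbered 490 as reported, 890 without the filter on low values and 281 when the filter was raised to 10 TPM, settings that change how many genes are tested. *Ccnd1* turned from 0.0047 to -0.0057 on the log2 scale with median-of-ratios scaling, which moved the median of all tested genes from 0.011 to 0.0013. With 1 library left out, log2 fold changes crossed 0 for *Ccnd1* (-0.0077 to 0.019), *Ccnd3* (-0.015 to 0.17), *Ccna2* (-0.066 to 0.054), *Ccnb2* (-0.017 to 0.062), *Cdk4* (-0.041 to 0.0094) and *Cdk6* (-0.041 to 0.26), and so did the log2 differences of the summed D cyclins (-0.0034 to 0.086), the summed A and B cyclins (-0.047 to 0.021), *Ccnd3*/*Ccnd1* (-0.014 to 0.17), *Ccnb1*/*Ccna2* (-0.065 to 0.027) and *Cdk6*/*Cdk4* (-0.029 to 0.26). None of these was past its threshold in any fit. Those of *Ccnd2* (0.056 to 0.13), *Ccne1* (0.012 to 0.15), *Ccnb1* (-0.053 to -0.0057), *Ccne2* (-0.23 to -0.16) and the summed E cyclins (-0.093 to -0.023) kept their sign. The S phase list had 12 of 13 genes lower in *Ltf*-KO SCs without WT replicate 1 and without WT replicate 2, and 13 under the other alternatives. Of these S phase genes 0 had an unadjusted p under 0.05 as reported, but 1 did without the filter, under median-of-ratios scaling and after quantile normalization, and 2 without WT replicate 3. With 1 library left out, 1 gene at most passed in each of the other cyclin and kinase, CDK inhibitor, E2F, MuvB, turnover and mitosis lists, and 0 among CDK phosphorylation switches and D cyclin inducing factors. With the replicate number as a block, *Ccne2* was at -0.18, and 380 genes had an unadjusted and 0 an adjusted p under 0.05. Deviations of same-numbered libraries correlated at -0.041, -0.058 and -0.088 over 12956 genes, and those of libraries with unlike numbers at -0.026 to 0.087. The labels do not say whether same-numbered libraries were handled together, and a shared batch was not tested. The cause of these shifts was not tested. With 3 libraries a genotype, exact permutation cannot go below 0.1, and RNA levels do not measure cyclin or CDK4 protein or kinase activity.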
